A study of Mus musculus with 40 samples.

Results

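The step from 6 to 12 months of age was examined in the cerebellum of wild-type (WT) mice, with 5 libraries of polyA RNA per age. The 10 libraries are those that the labels title wild-type cerebellum at these ages, out of 40 in the series, which also holds WT mice at 3 and 19 months and, at all 4 ages, SCA6 mice that are heterozygous for an expanded CAG repeat knocked into Cacna1a. The WT mice are labelled with the genotype WT and with no treatment besides their age. Strain and sex are not in the labels, and each library is labelled as a separate sample of whole cerebellum. A gene entered the comparison when it reached 1 CPM (its count scaled to the library total) in every library of at least 1 age, which 13176 of 21967 genes did. Of these, 12869 reached it at both ages, 69 at 6 months only and 238 at 12 months only.

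The cerebellum holds a very large population of small granule neurons, which send glutamatergic parallel fibres to the Purkinje neurons, and a far smaller population of microglia, the resident immune cells of the brain. Type I interferons are antiviral cytokines that signal through a cell surface receptor to a transcription factor complex that binds the interferon-stimulated response element and switches on many antiviral and antigen presentation genes. Expression of interferon-stimulated, complement and microglial genes is known to rise in the ageing mouse brain. In RNA of whole tissue, more or fewer cells of a type and more or less RNA per cell cannot be told apart.

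Library totals ran from 52226098 to 84506602 counts at 6 months and from 51469697 to 71105242 at 12 months. Replicate 1 at 6 months, the deepest library, held almost no choroid plexus RNA, with a Ttr (transthyretin, the main choroid plexus transcript) level of 12.7 normalized CPM against 2239 to 3436 in the other 6-month libraries. Libraries also differed in how strongly they represented GC-rich transcripts. The contrast between the GC-richest and GC-poorest quintiles of genes, as a log2 deviation from the mean of the libraries, ran from -0.07 to 0.49 at 6 months, highest in replicate 3, and from -0.23 to -0.09 at 12 months. Along the first principal component, which carried 45.7% of the variance of the 10 libraries, the 6-month libraries lay between -35.8 and -1.62, with replicates 1 and 3 farthest out, and the 12-month libraries between 6.51 and 16.4. Y-linked transcripts were present in 3 of 5 libraries at 6 months and in 4 of 5 at 12 months. The ID numbers in the labels, whose meaning is not given, do not overlap between the 2 ages, so an effect of what they stand for and an effect of age cannot be told apart and no value within a shared number exists.

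Between 6 and 12 months, 1366 of 13176 genes changed in WT cerebellum (10.4% of those tested), at an adjusted p of 0.05 or less in edgeR's quasi-likelihood test and a log2 fold change of at least 0.3 in size. Of these, 781 (5.93%) were higher and 585 (4.44%) were lower at 12 months, and the median size of the called changes was 0.40 on the log2 scale. The normalized CPM ranges of the 2 ages did not overlap for 1705 genes (12.9%). Without replicate 1 at 6 months 749 genes were called, and 805 without replicate 3 at 6 months. The direction of change followed the GC content of the transcript. Across the 12703 genes with a reference transcript, the log2 fold change and GC percent had a Spearman rho of -0.64, a description across genes that share the same libraries. In the GC-poorest quintile of genes, 395 were higher and 11 lower at 12 months, whereas in the GC-richest quintile 13 were higher and 426 lower. When each library's dependence on GC content was removed with a smooth curve, 307 of 12703 genes were called (2.42%), 219 of them higher (1.72%) and 88 lower (0.693%), and 247 of the original 1366 calls remained, 187 higher and 60 lower. A correction of this kind also removes any change of a gene group that is itself GC-rich or GC-poor, and the part of GC content in each result was otherwise not tested. For the main WT gene groups below, GC-corrected counts of calls or medians are given beside those as counted. The SCA6 list counts and the means over the 4 WT ages are given as counted only. The gene lists were chosen with earlier results of these data known. Their shares called, set beside those of all genes, are therefore descriptions.

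**Figure D1:**
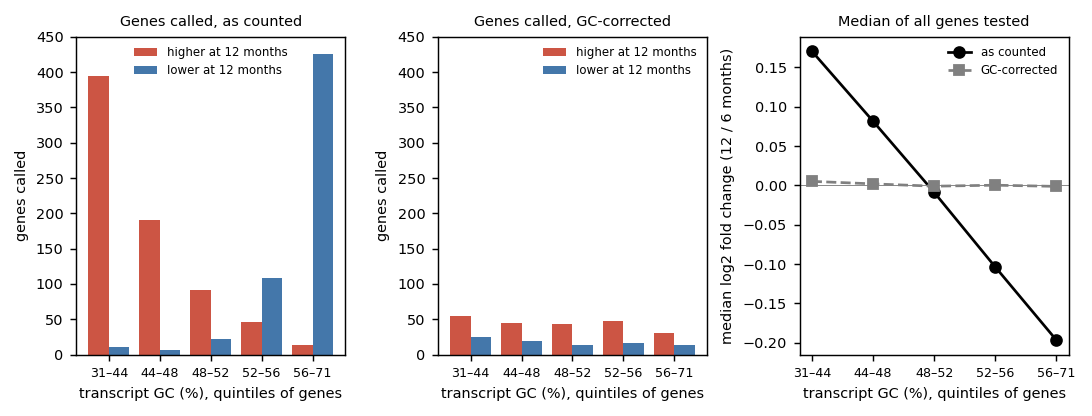
Genes called in WT cerebellum by quintiles of transcript GC content (x axes, percent), as counted (left) and GC-corrected (middle), and the median log2 fold change of all genes tested in each quintile (right). As counted, 395 genes were higher in the GC-poorest quintile and 426 were lower in the GC-richest quintile, and with GC correction the medians of the 5 quintiles lie near 0.

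The clearest group of genes that rose was the interferon response. Of 28 listed genes, 26 could be tested, and 23 of them were higher at 12 months and none was lower, against 5.93% of all genes called higher. The median log2 fold change of the 26 was 0.72, against -0.0023 for all genes. Oas2, Ifi44 and Psmb9 reached the minimum level at 12 months only, and of the 23 members that reached it at both ages 21 were called. GC correction left 17 of the 26 called, against 1.72% of all genes called higher, with a median of 0.70.

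Promoter sequence is shown here for genes of this group because their members moved together. The interferon-stimulated response element was searched on both strands as TTTC and TTTC separated by 2 bases of any kind, with overlapping matches counted, in RefSeq windows of 250 bases before to 50 bases after each start site on GRCm38.p6. Of 21 windows of the 19 listed interferon genes with an entry, 10 held a match (47.6%), against 3.44% of 32851 windows of 27025 genes and 2.87% of the windows of genes tested here. The list was made of known interferon response genes, so this excess follows from how it was composed. It says nothing about the change with age. The stretches below end at or before the start site, are read along the gene's strand, and have the matches in capitals. They lie for Ifit1 at chr19:34640745-34640853, plus strand, Isg15 at chr4:156200835-156200936, minus strand, Ddx60 at chr8:61927994-61928086, plus strand, Ifi213 at chr1:173599296-173599385, minus strand and Ctss at chr3:95526725-95526785, plus strand.
Ifit1: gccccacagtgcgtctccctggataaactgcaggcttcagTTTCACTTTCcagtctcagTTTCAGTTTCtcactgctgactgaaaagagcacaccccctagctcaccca
Isg15: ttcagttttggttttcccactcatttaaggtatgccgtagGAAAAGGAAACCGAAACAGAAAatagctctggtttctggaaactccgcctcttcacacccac
Ddx60: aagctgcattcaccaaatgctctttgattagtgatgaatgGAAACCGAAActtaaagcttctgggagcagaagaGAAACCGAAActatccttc
Ifi213: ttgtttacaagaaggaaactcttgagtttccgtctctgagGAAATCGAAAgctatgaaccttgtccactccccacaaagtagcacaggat
Ctss: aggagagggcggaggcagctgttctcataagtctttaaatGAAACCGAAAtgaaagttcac
Ifit1 (an RNA-binding antiviral protein) and Isg15 (a ubiquitin-like modifier) are members of the list, Ddx60 and Ifi213 are interferon-inducible genes outside it that were named for their size of change or p, and Ctss is a microglial cathepsin. The stretches shown were picked for holding a match. Among the other microglia markers with a window, Aif1 held a match. No match was found for C1qb, C1qc, Cd68, Cx3cr1, Fcrls, Itgam, Laptm5, Ly86, P2ry12, P2ry13, Siglech and Trem2. A match is a run of letters in a window and does not show binding.

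Ifit1 had normalized CPM of 4.97, 4.38, 4.48, 7.66 and 3.99 in the 6-month libraries and 16.9, 11.7, 8.91, 16.9 and 14.02 in the 12-month libraries. The lowest 12-month library was above the highest 6-month library, and the log2 fold change was 1.42 ± 0.20 (SE; edgeR adjusted p = 0.00291). Ifit1 lies at chr19:34640871-34650009. Oasl2, an oligoadenylate synthetase-like antiviral protein, had 5.85, 4.87, 5.96, 8.74 and 4.66 at 6 months and 15.1, 9.82, 9.24, 17.4 and 11.2 at 12 months. Its groups were also separate, with a log2 fold change of 1.06 ± 0.20 (SE; edgeR adjusted p = 0.00837). Replicates 1 and 4 were the 2 highest 12-month libraries for both genes, and replicate 4 was the highest at 6 months.

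The cytosolic RNA sensors moved in the same direction. Ifih1, which encodes MDA5, had 4.85, 5.71, 4.93, 5.41 and 6.00 normalized CPM at 6 months and 9.99, 9.10, 8.90, 11.7 and 8.35 at 12 months. The groups did not overlap and the log2 fold change was 0.84 ± 0.11 (SE; edgeR adjusted p = 0.00167). Ddx58, which encodes RIG-I, rose by 0.74 ± 0.12 (log2, SE; edgeR adjusted p = 0.00409), from 6.05 to 7.68 normalized CPM at 6 months to 8.80 to 13.3 at 12 months. Rsad2 (viperin) rose by 0.96 ± 0.16, Usp18 (the negative regulator of interferon receptor signalling) by 1.08 ± 0.24 and Parp14 by 0.84 ± 0.14 on the log2 scale. The transcription factor gene Irf7 rose by 0.72 ± 0.18 on the log2 scale. Among the antigen presentation members, B2m rose by 0.36 ± 0.08 and H2-K1 by 0.35 ± 0.10, whereas H2-D1 had a log2 difference of -0.03 ± 0.07 (edgeR adjusted p = 0.791), and Psmb9 and Tap1 had 0.43 ± 0.18 and 0.35 ± 0.15 without passing the test. Isg15, Xaf1, Gbp3, B2m and Psmb8 were among the members that no longer passed with GC correction. Mx1 and Zbp1 were below the minimum level and were not tested, and Mx1 had 0.27 to 0.64 normalized CPM at 6 months and 0.84 to 1.59 at 12 months.

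Several genes named for the size or p of their change belong to the same response although they are not on the list. Trim30d, an interferon-inducible member of the TRIM family, had 3.46, 3.92, 2.87, 4.11 and 3.63 normalized CPM at 6 months and 9.06, 7.62, 7.24, 9.12 and 8.01 at 12 months, a log2 change of 1.19 ± 0.11 (SE; edgeR adjusted p = 0.000559). Its lowest 12-month library was well above its highest 6-month library. Ddx60, an RNA helicase gene, rose by 1.29 ± 0.25 on the log2 scale. Ifi213, of the interferon-inducible p200 family, rose from 0.39 to 0.61 normalized CPM to 1.26 to 1.91, and reached the minimum level at 12 months only. These 3 genes kept their call with GC correction, as did Ifi27l2a, the list member with the second largest change (1.13 ± 0.22). Ifit3, Oas1a, Trim30d, Ifi213, H2-K1, H2-D1 and C4b have close relatives in the genome, and reads shared with a relative may have been split or left out by the counting, so their levels are less certain than those of single-copy genes.

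Microglial genes formed the other group that rose. Of 20 listed markers, 18 could be tested, all 18 at both ages, and 15 were higher at 12 months and none was lower, against 5.93% of all genes called higher, with a median log2 fold change of 0.51. With GC correction 13 were called, against 1.72% of all genes, and the median was 0.54. Itgam was close to 0 in every library, at most 0.08 normalized CPM, and was not tested. The markers Cx3cr1, P2ry12 and Csf1r rose along with complement and phagocytic genes, whereas Tmem119, P2ry13 and Fcrls did not pass the test.

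Ctss, which encodes the lysosomal protease cathepsin S, had 39.5, 33.5, 46.7, 34.6 and 35.98 normalized CPM at 6 months and 65.0, 58.2, 55.3, 66.1 and 62.5 at 12 months. The groups did not overlap, and the log2 fold change was 0.69 ± 0.09 (SE; edgeR adjusted p = 0.00167). C1qb, a chain of the first complement component, had 17.2, 17.1, 21.95, 17.1 and 17.4 at 6 months and 27.4, 25.3, 24.1, 30.04 and 24.2 at 12 months, a log2 change of 0.53 ± 0.09 (SE; edgeR adjusted p = 0.0050). The 6-month values were tight but for replicate 3. Tyrobp, the adaptor of TREM2, rose by 0.63 ± 0.11, Siglech by 0.55 ± 0.09, C1qa by 0.56 ± 0.11 and Aif1, which encodes IBA1, by 0.64 ± 0.15 on the log2 scale. The fractalkine receptor gene Cx3cr1 rose by 0.50 ± 0.09, the purinergic receptor gene P2ry12 by 0.41 ± 0.08 and Csf1r, the receptor for colony-stimulating factor 1, by 0.32 ± 0.07. Tmem119 and P2ry13 had log2 differences of 0.36 ± 0.12 and 0.24 ± 0.11 without passing the test (edgeR adjusted p = 0.0547 and 0.138), and Fcrls had 0.11 ± 0.13. P2ry12, Gpr34 and Trem2 lost their call with GC correction, whereas Tmem119 gained one. The summed level of the microglia list was 197 to 240 normalized CPM at 6 months and 275 to 331 at 12 months.

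Mpeg1, which encodes the pore-forming perforin-2 of macrophages and microglia and was named for its small p, had 15, 18.8, 16.5, 17.4 and 19.0 normalized CPM at 6 months and 36.3, 29.9, 31.2, 41.0 and 30.9 at 12 months. This was a log2 change of 0.97 ± 0.10 (SE; edgeR adjusted p = 0.000637), and replicates 1 and 4 were again the highest at 12 months. C4b, complement component 4, had 16.9, 16.7, 23.2, 17.6 and 20.4 at 6 months and 45.9, 32.7, 40.3, 48.6 and 33.7 at 12 months, with a log2 fold change of 1.09 ± 0.12 (SE; edgeR adjusted p = 0.000998). C4b, at chr17:34728380-34743882, is one of 19 listed genes of reactive glia and antigen presentation. Of the 15 of these that could be tested, 4 were higher and none lower, against 5.93% of all genes called higher. The median was 0.34, and 3 were called with GC correction, against 1.72% of all genes. The others called were C3 (1.23 ± 0.31), Lgals3bp (0.81 ± 0.17) and Spp1 (0.54 ± 0.13), and Spp1 lost its call with GC correction. C3, the central complement component, reached the minimum level at 12 months only, and its highest 12-month library had 5.33 normalized CPM against 1.30 in the lowest. The astrocyte genes Gfap, an intermediate filament, and Apoe, an apolipoprotein, had log2 differences of 0.22 ± 0.11 and 0.02 ± 0.08 and did not pass, nor did any of 21 astrocyte and Bergmann glia markers.

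**Figure D2:**
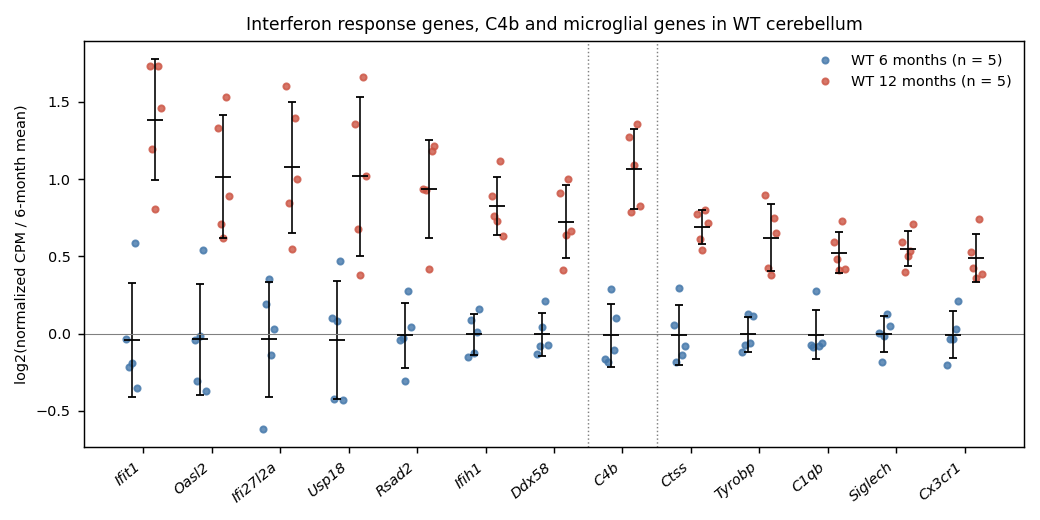
Each point is 1 WT library, as log2 of its normalized CPM over the 6-month mean, for 7 interferon response genes, C4b and 5 microglial genes (x axis), with the mean and SD of 5 libraries per age in black. For the genes shown other than Usp18, each 12-month library lies above each 6-month library.

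Among neuronal genes, markers of granule cells fell. Of 20 listed markers 19 could be tested, 8 were lower at 12 months and none was higher, against 4.44% of all genes called lower, with a median log2 fold change of -0.22. Neurod1 was listed at 0 in every library. With GC correction 3 were lower, Rbfox3, Fat2 and Grm4, against 0.693% of all genes, and the median was -0.23.

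Grm4, the metabotropic glutamate receptor of parallel fibre terminals, had 647, 549, 643, 574 and 507 normalized CPM at 6 months and 306, 424, 407, 370 and 322 at 12 months. The groups did not overlap and the level fell by 0.67 ± 0.10 on the log2 scale (SE; edgeR adjusted p = 0.00308), or by 0.43 with GC correction. Rbfox3, the splicing factor that is detected as NeuN, had 365, 300, 415, 360 and 353 at 6 months and 241, 249, 225, 255 and 223 at 12 months. It fell by 0.59 ± 0.08 on the log2 scale (SE; edgeR adjusted p = 0.00185). Fat2, a large cadherin of granule cell axons, had 949, 950, 879, 1065 and 1005 at 6 months and 709, 781, 655, 615 and 661 at 12 months, and fell by 0.50 ± 0.07 (SE; edgeR adjusted p = 0.00308). The vesicular glutamate transporter Slc17a7, the synapse organizer Cbln1 and the NMDA receptor subunit Grin2c fell by 0.45 ± 0.07, 0.46 ± 0.08 and 0.45 ± 0.07 on the log2 scale, and these 3, with Calb2 and Gabrd, were no longer called with GC correction. Gabra6, the granule cell GABA-A receptor subunit, had a log2 difference of 0.04 ± 0.08 (edgeR adjusted p = 0.737), so markers of the same cells did not move alike.

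Ion channel genes gave 5 lower and 1 higher of 28 tested, against 4.44% of all genes called lower and 5.93% called higher. With replicate 2 at 6 months left out 8 were lower, and with replicate 3 at 6 months left out 0 were higher. With GC correction 2 were lower, against 0.693% of all genes. Fgf14, an intracellular regulator of sodium channels whose mutation causes an inherited ataxia, had 207, 175, 187, 148 and 156 normalized CPM at 6 months and 103, 130, 137, 102 and 106 at 12 months. It fell by 0.59 ± 0.11 on the log2 scale (SE; edgeR adjusted p = 0.0066) and by 0.80 with GC correction, with a transcript GC content of 39.3%. Cacna1a, the calcium channel gene that carries the repeat in the SCA6 mice, had 533, 472, 469, 523 and 447 at 6 months and 369, 431, 417, 348 and 360 at 12 months in these WT mice, a fall of 0.34 ± 0.07 on the log2 scale (SE; edgeR adjusted p = 0.0121). With GC correction the Cacna1a difference was -0.15 and not called. The potassium channel gene Kcnc1 and the T-type calcium channel gene Cacna1g fell by 0.36 ± 0.07 and 0.31 ± 0.06 on the log2 scale and also lost their call with GC correction. Kcnma1, Itpr1 and Kcnn2, channels of Purkinje neuron calcium signalling and firing, had log2 differences between 0.01 and 0.15 and did not pass.

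Of 25 postsynaptic genes, 8 were lower and 3 higher. Over all genes tested, the shares were 4.44% lower and 5.93% higher, and these apply to each list of this paragraph. The lower ones included the scaffold genes Shank1 and Shank3 and the NMDA receptor subunit Grin1, which fell by 0.39 ± 0.07 on the log2 scale, and the higher ones were Gria2, Gria3 and Gabrb2. The postsynaptic count called higher was 1 without replicate 3 at 6 months and 1 without replicate 3 at 12 months. GC correction left 3 lower, Grm4, Dlg4 and Nlgn1, against 0.693% of all genes, and none higher. Among 21 presynaptic genes Syn1 and Bsn were lower, and among 26 Purkinje cell markers Slc1a6, the Purkinje glutamate transporter, and the transcription factor gene Lhx5 were lower; all 4 lost the call with GC correction. The presynaptic count called lower was 0 without replicate 1 at 6 months, and 1 without replicate 3 at 6 months or replicate 1 or 4 at 12 months. The Purkinje count called lower was 0 without replicate 1 or 3 at 6 months or replicate 4 at 12 months, and 1 or 2 without any other single library. Calb1 and Pcp2, which define Purkinje cells, had log2 differences of 0.03 ± 0.05 and -0.14 ± 0.07. Grm2 and Pax2 were the 2 lower of 16 inhibitory interneuron markers, likewise only without GC correction, and 1 was called when any single library other than replicate 2 at 6 months was left out.

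The 10 lowest log2 fold changes among the more abundant genes held several further neuronal genes. Kcnip4, an auxiliary subunit of Kv4 potassium channels, had 408, 317, 390, 315 and 273 normalized CPM at 6 months and 192, 212, 208, 175 and 209 at 12 months. The lowest 6-month library was above the highest 12-month library, and Kcnip4 fell by 0.77 ± 0.10 on the log2 scale (SE; edgeR adjusted p = 0.00186). Ntf3, the neurotrophin-3 gene, had 6.54, 6.35, 6.05, 5.31 and 5.19 at 6 months and 2.67, 3.75, 3.53, 3.21 and 3.07 at 12 months, a fall of 0.86 ± 0.12 (SE; edgeR adjusted p = 0.00223). Necab3, a neuronal calcium-binding protein gene, fell by 0.67 ± 0.09, Prrt1, which encodes an AMPA receptor-associated protein, by 0.69 ± 0.14, and Car9, a carbonic anhydrase gene, by 0.73 ± 0.10. Igsf21, a synaptic adhesion gene, had 66.9, 61.1, 61.5, 67.4 and 63.1 at 6 months and 44.1, 45.9, 44.2, 42.6 and 40.5 at 12 months and fell by 0.56 ± 0.05 (edgeR adjusted p = 0.000559), the smallest p among the named genes that were lower. These 6 genes kept their call with GC correction, as did Xkr6, Mbd6 and Tbata, whereas Hs6st3 and Cabp2 did not.

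Among the 10 highest were also genes outside the immune groups. Ostn, a secreted peptide gene, had 2.04, 1.87, 2.21, 1.59 and 1.24 normalized CPM at 6 months and 3.69, 4.07, 2.85, 4.31 and 4.66 at 12 months, a log2 fold change of 1.12 ± 0.17 (SE; edgeR adjusted p = 0.00392). Slc26a7, an anion transporter gene, had 4.58, 6.37, 4.39, 5.21 and 5.72 at 6 months and 9.82, 9.21, 19.0, 8.99 and 8.69 at 12 months, a log2 fold change of 1.09 ± 0.21, with 1 high library at 12 months. Prokr2, a prokineticin receptor gene, had the highest log2 fold change of these, 1.95 ± 0.48, and its 12-month values were 2.51, 2.23, 2.74, 9.66 and 1.09 normalized CPM. Without replicate 4 at 12 months its log2 fold change was 1.20. The ages overlapped for Prokr2, which reached the minimum level at 12 months only, as did Lrriq1, and both lost the call with GC correction. Slc7a11, the cystine transporter gene on the ATF4 list, rose by 0.62 ± 0.12 and kept its call.

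In the oligodendrocyte lineage 4 of 19 markers rose, against 5.93% of all genes called higher. Among them were Ermn (0.43 ± 0.08), which encodes a myelin protein, Aspa (0.42 ± 0.12), which encodes the enzyme aspartoacylase, and Ugt8a (0.38 ± 0.08), which encodes an enzyme of myelin lipid synthesis. The transcripts of these 3 have a GC content of 38.01% to 38.5%. With GC correction none of the 4 was called and the sole call was Hapln2, against 1.72% of all genes called higher. The list's median was 0.15 as counted and 0.19 with GC correction. Of 13 mitochondrially encoded genes none was called as counted. With GC correction mt-Nd4 and mt-Nd1, complex I subunits, were lower (-0.53 and -0.38), against 0.693% of all genes.

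Of 17 choroid plexus markers none was called, with a median log2 difference of 0.66 (0.67 with GC correction). Of these, 9 reached the minimum level at both ages and 8 at 12 months only, so that the sign of the latter was favoured by the filter. Without replicate 1 at 6 months, the library with almost no choroid plexus RNA, the median was 0.33 and 3 markers were called higher. Ttr had 12.7, 2526, 3436, 2239 and 2699 normalized CPM at 6 months and 3147, 2657, 3866, 2500 and 4458 at 12 months, a log2 difference of 0.61 ± 0.74 (edgeR adjusted p = 0.562). Cholesterol synthesis genes gave 1 higher and 2 lower of 22, and 0 higher and 1 lower with GC correction. For this and the lists that follow, the shares over all genes were 5.93% higher and 4.44% lower, and 1.72% and 0.693% with GC correction. No member was called among 31 proteasome subunits, 66 nuclear-encoded respiratory chain subunits, 76 cytosolic ribosomal proteins, 20 HSF1 targets, 19 immediate early genes and 6 red blood cell markers. With 1 library left out the HSF1 targets, respiratory chain subunits and immediate early genes each had at most 1 call. Blood vessel markers gave 1 lower of 18 (Acta2), oligodendrocyte precursor markers 1 lower of 13 (Cspg4) and meningeal fibroblast markers 2 higher of 12 (Ogn and Dcn), all without a call after GC correction. Among 22 other unfolded protein response genes (Hspa13), 20 lysosomal genes (Lamp2), 17 circadian clock genes (Nr1d2), 15 glucocorticoid-induced genes (Pdk4), 9 perineuronal net genes (Hapln1) and 7 cell cycle genes (Mcm6), the 1 gene named in each case was higher, and none of these 6 was called with GC correction. Without replicate 1 at 6 months, 0 genes were called in the blood vessel, oligodendrocyte precursor, meningeal fibroblast, other unfolded protein response, lysosomal, perineuronal net and cell cycle lists and 0 cholesterol synthesis genes were called higher, and without replicate 3 at 6 months the same held but for 1 meningeal fibroblast marker. The single noncoding nuclear RNA tested, Snhg11, had a log2 difference of 0.03.

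**Figure D3:**
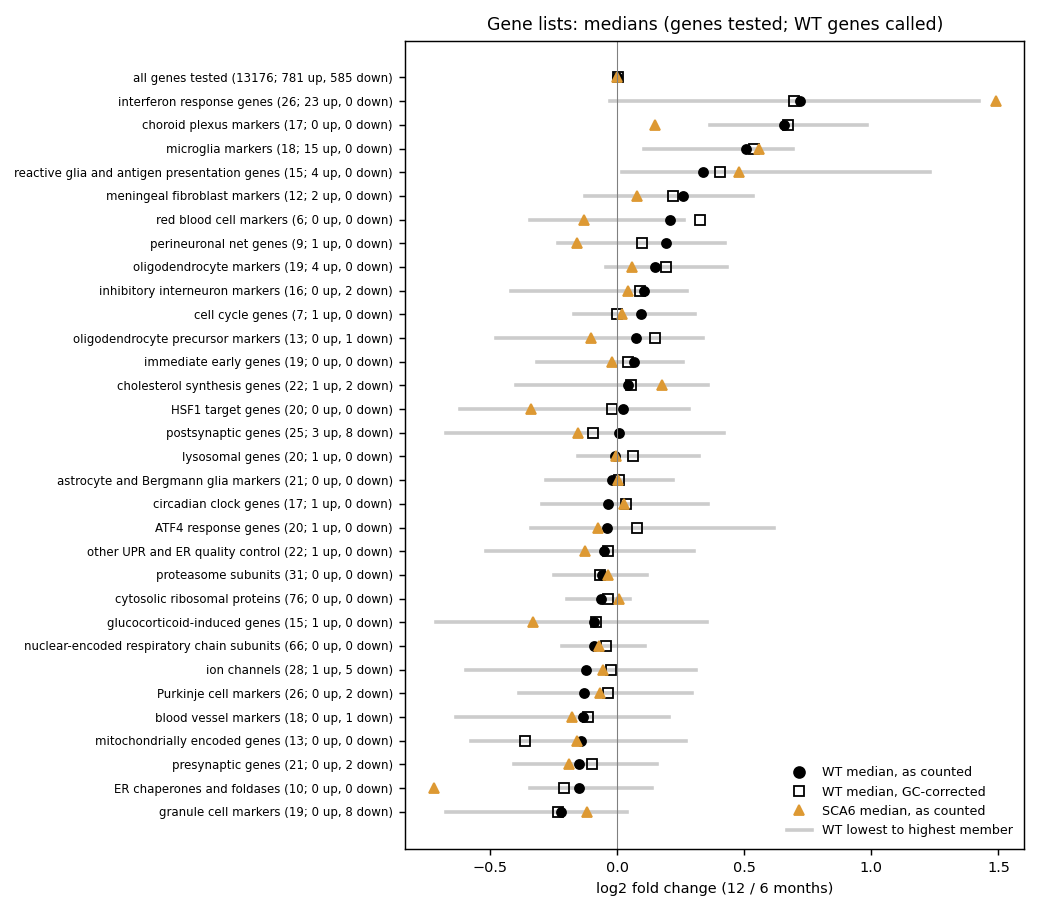
Median log2 fold change (x axis) of each gene list in WT cerebellum as counted (filled circles) and GC-corrected (squares) and in SCA6 cerebellum (triangles), with the range of the WT members in grey and the number of genes tested and called beside each name. Interferon response genes have a WT median of 0.72 and granule cell markers one of -0.22, the highest and the lowest of the WT medians as counted.

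The endoplasmic reticulum (ER) chaperones, which fold secreted and membrane proteins and are induced by the unfolded protein response, did not pass the test in any of 10 cases (median -0.15, and -0.21 with GC correction). Without replicate 3 at 6 months the median was 0.04. Hspa5, which encodes BiP, had 445, 468, 674, 216 and 207 normalized CPM at 6 months and 238, 423, 503, 330 and 215 at 12 months. The values of each age spanned more than the difference between ages, which was -0.23 ± 0.31 on the log2 scale (edgeR adjusted p = 0.601). The summed level of the 10 genes ran from 1372 to 3308 normalized CPM at 6 months and from 1424 to 2498 at 12 months. Calr, Hyou1, Pdia4 and Creld2 followed the same order at 6 months, with replicate 3 highest and replicates 4 and 5 lowest. These chaperones were selected in the study on samples of this series, as genes higher in SCA6 than in WT mice at 6 months.

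The other WT ages place this step, given here as means without a test. Mean Ifit1 was 6.20 ± 1.29, 5.09 ± 1.48, 13.7 ± 3.44 and 18.9 ± 2.45 normalized CPM (SD, n = 5) at 3, 6, 12 and 19 months. C4b had means of 15.9 ± 4.08, 19.0 ± 2.78, 40.2 ± 7.10 and 54.9 ± 11.1, and Ctss 39.9 ± 6.34, 38.1 ± 5.35, 61.4 ± 4.59 and 90.9 ± 16.3. For these the 3- and 6-month means lay within their spread of each other and both later means were higher. Grm4 had means of 334 ± 70.4, 584 ± 60.5, 366 ± 51.7 and 273 ± 57.0, Kcnip4 211 ± 19.3, 340 ± 56.4, 199 ± 15.7 and 199 ± 16.01, and Rbfox3 261 ± 26.7, 359 ± 40.7, 239 ± 14.2 and 264 ± 30.9. For these neuronal genes the 6-month mean was the highest of the 4, and the 3- and 12-month means of Grm4, Kcnip4 and Rbfox3 differed by less than 2 SD of the 3-month group. The GC contrast of the libraries ran from -0.18 to -0.14 at 3 months, -0.07 to 0.49 at 6 months, -0.23 to -0.09 at 12 months and -0.19 to -0.07 at 19 months, and its part in these means was not tested. Ntf3 had means of 5.22 ± 1.04, 5.89 ± 0.61, 3.25 ± 0.42 and 2.23 ± 0.57 at the 4 ages.

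**Figure D4:**
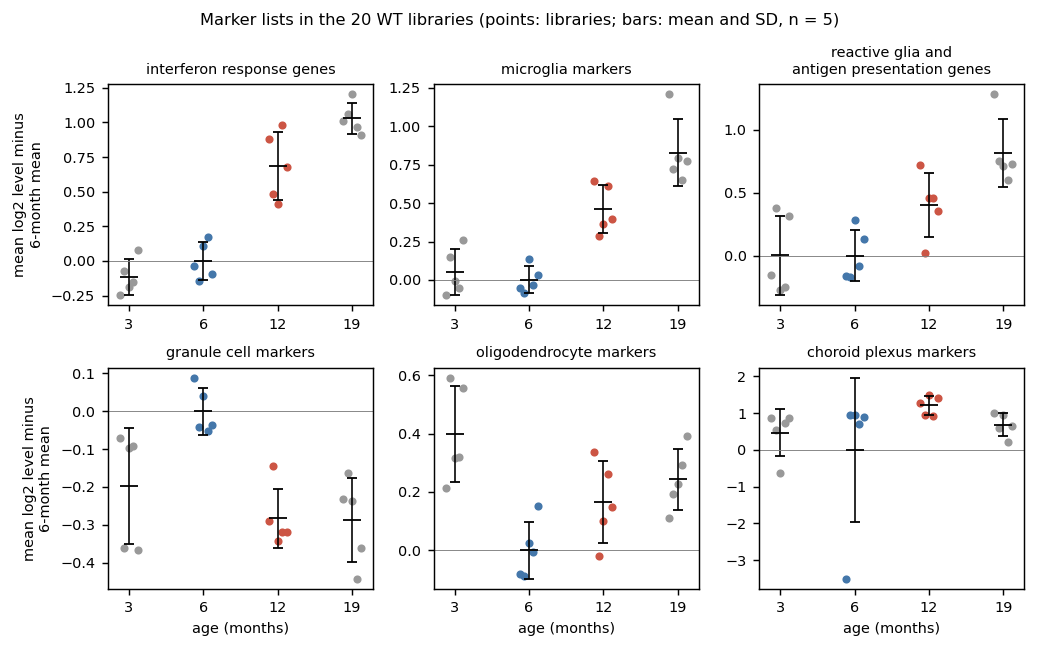
Mean log2 level of 6 marker lists in each of the 20 WT libraries, as the difference from the 6-month mean (y axes, each with its own scale), by age in months, with the mean and SD of 5 libraries. Interferon, microglial and reactive glia lists are higher at 12 and 19 months, the granule cell list is highest at 6 months, and 1 library at 6 months lies at -3.50 in the choroid plexus list.

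The same step in SCA6 mice, which shares no library with the WT comparison, is set beside the WT changes. The ID numbers of the SCA6 libraries do not overlap between the 2 ages either. Some of them are shared with WT libraries of the same age. The median GC contrast of the SCA6 libraries was 0.10 at 6 months and -0.25 at 12 months. An effect of age therefore cannot be told apart from these in either genotype, and a change called in both is not independent of them. In SCA6 cerebellum 2090 of 13222 genes changed (15.8%), 1237 higher (9.36%) and 853 lower (6.45%), and with GC correction 1163 of 12745 (9.13%), 680 higher (5.34%) and 483 lower (3.79%). Of the genes called, 714 were called in both genotypes, 52.3% of the WT and 34.2% of the SCA6 calls, and the 714 had the same direction in both, 474 higher and 240 lower. The SCA6 changes had a similar relation to GC content (Spearman rho -0.58 across genes), and with GC correction 184 genes were called in both, again in the same direction, 59.9% of the WT and 15.8% of the SCA6 calls. No gene passed the test of the difference between the 2 genotypes' age changes among 13270 tested (0%; 1224 had an unadjusted p below 0.05, the smallest adjusted p in edgeR was 0.537, and DESeq2 called 0), whereas limma voom with quality weights called 521.

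Interferon response genes had a median log2 fold change of 1.49 in SCA6, with 25 of 26 higher, against 0.72 in WT. Replicate 2 of the SCA6 12-month group stood far above the other 4 in this list, at 2.84 on the log2 scale of the list level against a group median of 0.84, and without it the SCA6 median was 0.83, with 25 of 26 still called. The difference for Ifit1, WT minus SCA6, was -1.33 ± 0.71 on the log2 scale and did not pass the test. Microglia markers gave 14 higher of 18 in SCA6 (median 0.56) and granule cell markers 4 lower of 19 (median -0.12). Over all genes in SCA6, 9.36% were called higher and 6.45% lower. ER chaperones gave 8 lower of 10 in SCA6 (median -0.72) and none in WT, and HSF1 targets 11 lower of 20 in SCA6 and none in WT. The 10 chaperones were selected in the study as higher in SCA6 than in WT mice at 6 months, on samples of this series. A fall from that age in SCA6 was favoured by this selection. No member of these lists passed the test of the difference between genotypes in edgeR.

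**Figure D5:**
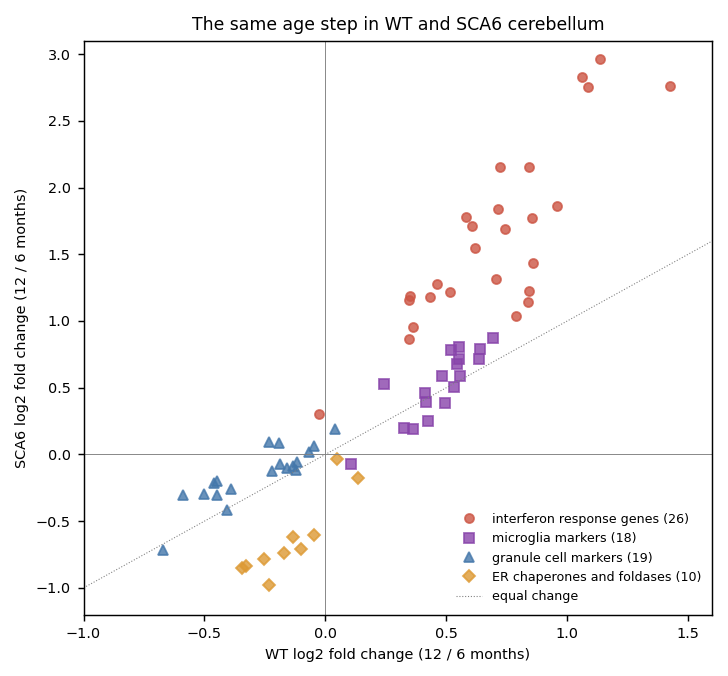
Log2 fold change from 6 to 12 months in WT (x axis) and SCA6 (y axis) cerebellum for members of 4 gene lists, 1 point per gene, with the line of equal change. Interferon genes lie above the line, with SCA6 values up to 2.96, microglial genes near it and granule cell genes mostly below 0 in WT. Without SCA6 12-month replicate 2 the SCA6 median of the interferon genes was 0.83, against 0.72 in WT. ER chaperones have lower log2 fold changes in SCA6 than in WT. They were selected in the study as higher in SCA6 than in WT at 6 months.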

How the data were processed

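PolyA RNA of WT and SCA6 mouse cerebellum was sequenced by the authors in 40 libraries (150 bp paired reads), of which the 10 WT libraries at 6 and 12 months are compared here. The authors trimmed the reads with Trimmomatic, aligned them to mm10 with STAR, counted them per gene with HTSeq and deposited raw counts. Tool versions, the annotation and the strand setting were not stated in those sources, so antisense partners cannot be told apart. The authors also removed outliers, judged by principal component analysis and hierarchical clustering. Their network analysis used fewer than the 40 libraries. Which libraries were left out is not stated in the paper, and none was left out of the main comparison here.

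Counts were tested with edgeR (4.0.16; quasi-likelihood test, TMM scaling, R 4.3.3) on genes with a CPM of 1 or more in every library of either age, with Benjamini-Hochberg adjustment over all genes tested. Calls needed both an adjusted p no larger than 0.05 and a log2 change, up or down, of at least 0.3. Normalized CPM were scaled by TMM over the 40 libraries, and log2 list levels used a pseudocount of 0.05. All p-values measure the spread between 5 libraries per age. GC content and length came from the longest GENCODE M21 transcript (GRCm38, the build of mm10; 19848 of 21967 genes matched), and GC correction used a loess curve (span 0.5) per library as an offset. Alternatives used DESeq2 (1.42.0), limma (3.58.1) and the settings given in the closing section. Promoter windows came from RefSeq (GRCm38.p6). The fits were tested on simulated counts with known changes. These counts were made without any dependence on GC content, so they say nothing about the relation to GC content.

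By rule the text names the 10 called genes that rose most and the 10 that fell most (mean log2 CPM at least 1, no clone or predicted-gene symbols), the 5 smallest adjusted p, up to 4 called members of each list (or 2 with the smallest p where none was called), the ER chaperones and 7 genes named in the study. Oasl2, Usp18, Cx3cr1 and other list members outside this rule were chosen after their values were seen. Some list members are counted but their values are not reported here. The members and the 33 lists were chosen with earlier results of these data known. Replicate numbers did not pair the libraries (correlations of deviations from -0.22 to 0.42). Library pairs of a group differed by more than sampling noise.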

Additional observations from a re-analysis of the deposited data

Results flagged for a closer look

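In 15 of 266 groups of 5 values examined (5.64%), 1 library stood apart from the other 4 by a gap of more than 0.710 of the group's range, and chance alone flags about 1 group in 20. Replicate 3 at 6 months accounted for 5 of them. Its blood vessel list level was 0.27 on the log2 scale relative to the 6-month mean against -0.10 to -0.02 in the others, its lysosomal list level 0.13 against -0.05 to -0.01, Acta2 was 18.2 normalized CPM against 8.37 to 10.6, Arc 21.8 against 14.9 to 16.4 and C1qb 21.95 against 17.1 to 17.4. Replicate 1 at 6 months stood apart in the choroid plexus list, at -3.50 against 0.72 to 0.95. Replicate 4 at 6 months was high for Ifit1 (7.66 against 3.99 to 4.97) and Necab3 (26.2 against 20.7 to 21.9), and replicate 2 at 6 months for Hspa4l (400.39 against 335 to 342). At 12 months replicate 4 was high for Prokr2 (9.66 against 1.09 to 2.74), replicate 3 for Slc26a7 (19.0 against 8.69 to 9.82), replicate 1 for Atp5d (66.8 against 56.1 to 58.3), and replicate 5 was high for Egr1 (29.6 against 18.7 to 20.96) and low for Syn1 (87.9 against 108 to 115). The granule cell list level of replicate 2 at 12 months was -0.15 against -0.34 to -0.29 in the other 12-month libraries, all of them below the 6-month range of -0.05 to 0.09.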

How the results depend on the processing

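No named gene reversed its direction with a call under any alternative run. The WT count of 1366 called genes was 2622 with no minimum fold change, 307 with GC correction, 367 with GC and length correction, 158 with GC correction and a replicate block, and 262 without WT 6 months replicates 1 and 3 together; these GC and 2-library settings were chosen after seeing the data. Leaving out 1 library gave 749 (without replicate 1 at 6 months) to 1963, and 805 without replicate 3 at 6 months. The SCA6 count of 2090 was 5109 with no minimum fold change and 1163 with GC correction, and 1748 to 2555 with 1 library left out. The difference between genotypes gave 0 calls in edgeR and DESeq2, 0 in each of 20 fits with 1 library left out, and 521 with limma voom and quality weights. The replicate block gave 1407 WT, 2058 SCA6 and 0 interaction calls, and since the numbers share only a name no pairing was assumed. The 23 interferon calls were 11 in a joint fit of 8 groups (the cause was not tested), 12 with a minimum of 5 CPM, where fewer genes are tested, 11 without the 2 libraries named above, and 16 to 23 with 1 library left out. The 15 microglial calls stayed between 10 and 16, and the 8 granule cell calls were 3 in each fit with GC correction and 6 to 9 otherwise. Of the 67 named genes called, 33 kept their call with GC correction. The ID numbers of the libraries, and whatever they stand for, cannot be told apart from age.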

Other observations

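Microglial activation genes below the minimum level also differed in range between the ages. Cst7 (cystatin F) had 0.05 to 0.10 normalized CPM at 6 months and 0.14 to 0.48 at 12 months, and Itgax (CD11c) 0.16 to 0.37 and 0.41 to 0.92. The ages did not overlap for either gene, as for 12.9% of the genes tested. Lcn2, also an untested member of the reactive glia list, overlapped, with 0.10 to 5.17 at 6 months and 0.15 to 2.58 at 12 months. These genes were not tested, and at these levels counting error is a larger share of each value. Transcript length was related to the direction of change as well. In the longest quintile of genes 276 were higher and 86 lower at 12 months, and in the shortest quintile 65 were higher and 125 lower, with medians of 0.09 and -0.08 on the log2 scale. With GC correction 51 were higher and 17 lower in the longest quintile, and 38 higher and 21 lower in the shortest. The medians were then 0.04 and -0.02.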
